A study of Mus musculus with 4 samples.

Results

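The genes described here are 40 cell cycle and DNA replication genes, 20 that act in replication and 20 that act in mitosis, among the 22422 genes of the deposited table. They were taken by symbol from a given list of names, and all 40 were found and tested. RNA of whole distal colon was sequenced from 2 groups of female mice, 6 weeks old, each with 2 libraries. Elf4fl/fl-Villin-Cre mice carry a loxP-flanked Elf4 gene and Cre recombinase made under the villin promoter, which is active in intestinal epithelium, so other cells of the colon keep Elf4. Wild-type mice were the controls, and their alleles at Elf4 and any Cre are not stated. Both groups had 2% dextran sulfate sodium (DSS), which injures the colonic epithelium, for 5 days. The strain label reads C57BL/8 for the Elf4fl/fl-Villin-Cre samples, whereas the design text names C57BL/6. Nothing says that the 2 libraries of a group came from separate animals, so p-values measure the spread between these libraries, which may be technical. Colon without DSS was not analysed here.

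A dividing cell first licenses its replication origins by loading the MCM helicase, then copies its DNA in S phase, and later separates the chromosomes on the mitotic spindle. Genes of the S phase programme are switched on by E2F factors once cyclin D kinases have released them from retinoblastoma family proteins. Mitosis genes follow later, through the MuvB complex, which binds a promoter element called the CHR beside CCAAT boxes bound by NF-Y. The factors Mybl2 and Foxm1 act with that complex. In the colon most dividing cells are epithelial cells of the lower crypt. Leukocytes and stromal cells that divide after injury use the same genes.

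The promoters of the members carried the 2 kinds of element to different extents. RefSeq promoters (build GRCm38.p6, 250 bases before to 50 after each start) were listed for 33 members, 17 of replication and 16 of mitosis. Letters were searched on both strands. The CHR letters TTTGAA or TTCGAA were found in 12 of 16 mitosis promoters and 3 of 17 replication promoters, against 21.7% of all 27025 genes with a listed promoter. CCAAT was found in 14 of 16 and 12 of 17 (41.1% of all genes), and CCAAT together with a CHR in 12 of 16 and 2 of 17 (8.61% of all genes). The E2F letters TTTGGCGC or TTTCCCGC were found in 0 of 16 mitosis promoters and 7 of 17 replication promoters, against 1.8% of all genes. The ETS letters CCGGAAGT, the kind of site that Elf4 family factors bind, were found in 2 of 16 and 1 of 17 (4.31% of all genes). Matches of CCAAT overlapped each other in 2 members, Ube2c and Uhrf1, and matches of different elements overlapped in 0. A match describes letters, not a bound site. The 180 bases before the start are shown for 4 members. Ccnb2 is the member that passed edgeR's test, Cdc20 is another mitosis member with a match of each kind, and Mcm5 and Mcm6 encode helicase subunits with an E2F match. Capitals mark CCAAT and the CHR letters in Ccnb2 and Cdc20, and the E2F letters on either strand in Mcm5 and Mcm6. Ccnb2 has another CHR match, 5 bases into the transcript, which lies outside the stretch shown.
Ccnb2 (chr9:70421555-70421734, minus strand): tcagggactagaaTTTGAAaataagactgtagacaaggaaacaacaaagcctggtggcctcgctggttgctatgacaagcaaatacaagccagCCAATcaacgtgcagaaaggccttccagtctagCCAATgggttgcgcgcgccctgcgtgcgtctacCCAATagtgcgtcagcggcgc
Cdc20 (chr4:118437344-118437523, minus strand): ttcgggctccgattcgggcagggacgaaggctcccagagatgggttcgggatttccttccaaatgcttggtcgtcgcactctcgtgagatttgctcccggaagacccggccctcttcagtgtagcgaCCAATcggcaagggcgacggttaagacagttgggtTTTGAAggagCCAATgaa
Mcm5 (chr8:75109329-75109508, plus strand): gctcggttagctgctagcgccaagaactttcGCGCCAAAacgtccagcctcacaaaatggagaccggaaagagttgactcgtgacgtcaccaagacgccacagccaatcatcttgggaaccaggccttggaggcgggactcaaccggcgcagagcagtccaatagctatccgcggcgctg
Mcm6 (chr1:128359706-128359885, minus strand): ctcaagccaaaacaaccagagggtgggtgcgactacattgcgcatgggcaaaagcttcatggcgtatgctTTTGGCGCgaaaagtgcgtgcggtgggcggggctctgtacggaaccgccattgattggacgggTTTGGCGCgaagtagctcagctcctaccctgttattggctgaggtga

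**Figure D1:**
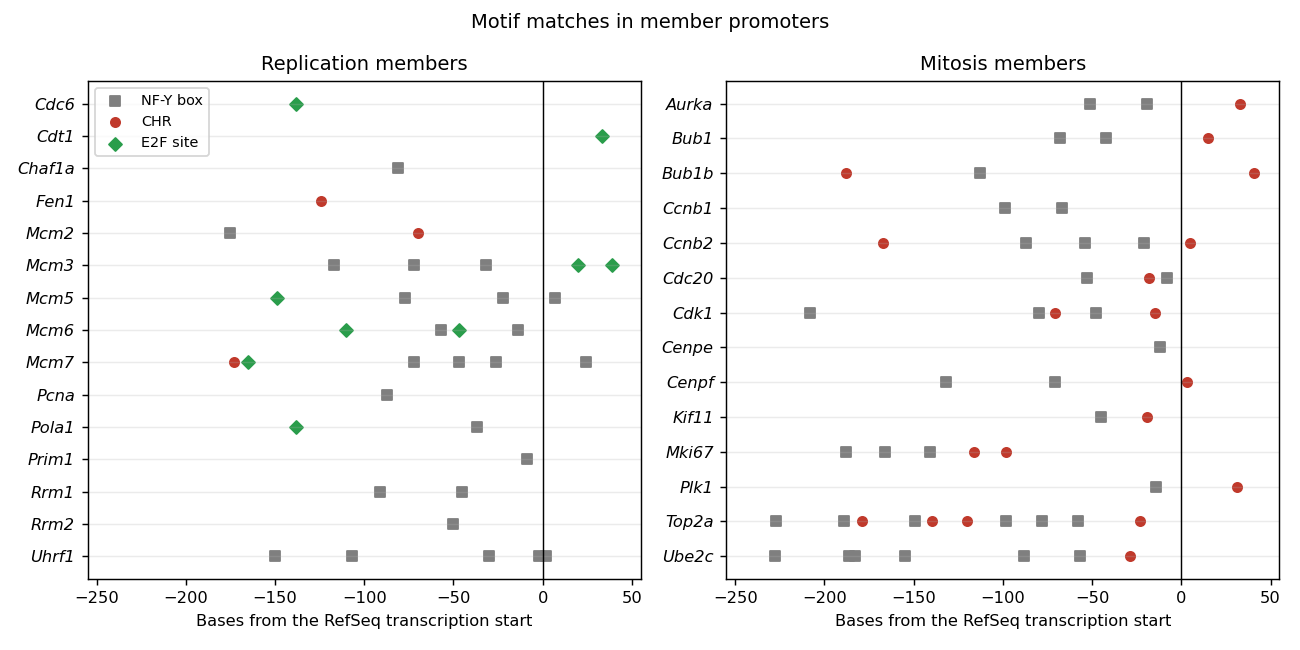
Position of each motif match (first base, in bases from the RefSeq start) in the promoters of replication members (left) and mitosis members (right). Grey squares are NF-Y boxes, red circles the CHR and green diamonds E2F sites. Members without a match are not drawn. CHR matches fall in 12 of 16 mitosis promoters and E2F matches in 7 of 17 replication promoters.

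The libraries held 16023926 and 16425954 reads in Elf4fl/fl-Villin-Cre colon and 16134509 and 15885028 in wild-type colon, recovered from the deposited normalised reads. Elf4 itself stood at 897 and 758 normalised reads in Elf4fl/fl-Villin-Cre colon and 1588 and 1938 in wild-type colon, a log2 fold change of -1.09 ± 0.16 (SE; limma adjusted p = 0.0139). The values cover the whole gene, so they do not check the loxP-flanked exons alone. Fold changes here set the Elf4fl/fl-Villin-Cre against the wild-type colon by log2(value + 1), a scale that understates those of genes with few reads. Of the 22050 genes tested, limma called 1512 higher and 1897 lower (Benjamini-Hochberg adjusted p under 0.05), and with library totals as the scaling 4114 and 1194. Markers of epithelium, which identify the labelled tissue, were abundant in every library but lower in Elf4fl/fl-Villin-Cre colon, where 11 of 11 fell. Vil1, whose promoter drives the Cre, had 5612 and 5973 normalised reads in Elf4fl/fl-Villin-Cre colon and 15717 and 19054 in wild-type colon (limma adjusted p = 0.00942).

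Of the 40 proliferation genes, none passed limma's test between the genotypes. By limma 0 of 40 rose and 0 fell, whereas 6.86% of all genes tested were called higher and 8.6% lower. With no adjustment, limma had 0 higher and 8 lower at p under 0.05 (16.7% and 15.4% of all genes), and edgeR on the recovered reads likewise 0 and 8 (18.7% and 20.3%). edgeR called 1 member lower, the cyclin gene Ccnb2, and 0 higher (13.5% and 9.88% of the 17337 genes it tested). In the main limma fit no member differed by a fold of 2 or more, a size that 21.4% of all genes tested reached. Fen1 did so, uncalled, with DESeq2 (log2 fold change -1.02, adjusted p = 0.237) and in limma with quantile scaling (-1.19, adjusted p = 0.0869). The 95% interval of the fold change lay within a fold of 2 in either direction for 30 of 40 members, against 37.7% of all genes. These shares do not compare genes of like level. The median level was 173 normalised reads for members and 131 for all genes, and the median SE 0.22 and 0.26. A p that misses the threshold does not show that levels were alike. In whole tissue, fewer cells of a type and less RNA per cell cannot be told apart.

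The small differences that were measured lay on the lower side relative to other genes. The median log2 fold change was -0.15 over the 20 replication members and -0.24 over the 20 mitosis members, against 0.11 over all genes tested. Library totals moved the median of all genes to 0.41 and turned both signs, to 0.17 and 0.07. Relative to the median of all genes the replication members stood at -0.25 in the deposited scaling and -0.24 under library totals, and the mitosis members at -0.35 and -0.33. The libraries of the groups did not overlap for 17 members. In 16 of these both Elf4fl/fl-Villin-Cre libraries were the lower ones (27.2% of all genes) and in 1, Nusap1, the higher ones (35.0% of all genes).

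Wild type replicate 1 was the highest of the 4 libraries for 29 of 40 members, 13 of replication and 16 of mitosis. It stood above wild type replicate 2 for 35 of 40 members, against 51.0% of all genes. Without wild type replicate 1 the limma medians were -0.10 for replication and -0.07 for mitosis members, and without wild type replicate 2 they were -0.29 and -0.47. Elf4fl/fl-Villin-Cre replicate 1 stood above replicate 2 for 24 of 40 members (45.4% of all genes), 14 of replication and 10 of mitosis. The direction of the medians was thus kept, and their size changed with which wild-type library was left out.

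**Figure D2:**
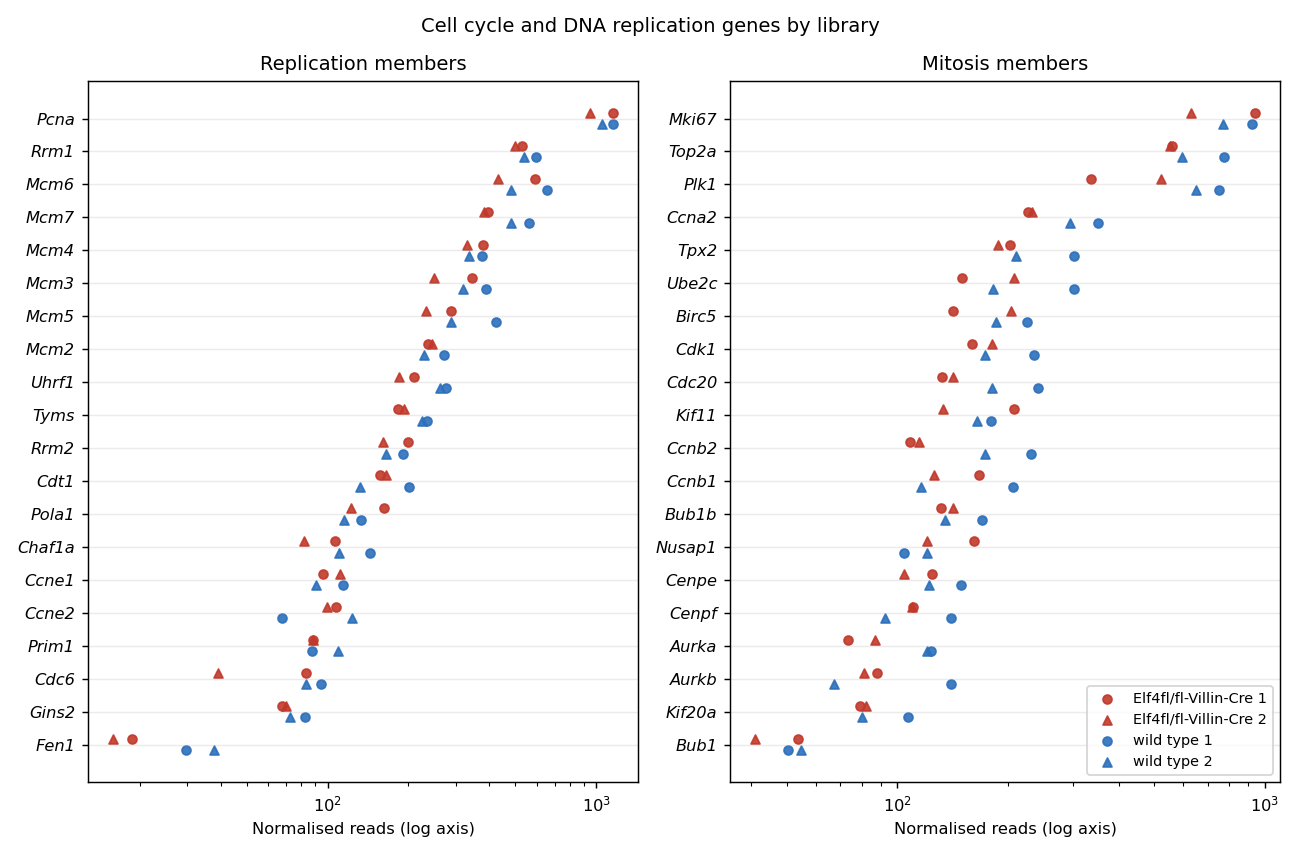
Normalised reads (log axis) of the 20 replication members (left) and 20 mitosis members (right) in each library, ordered by mean level. Red marks are Elf4fl/fl-Villin-Cre and blue marks wild-type libraries, circles replicate 1 and triangles replicate 2. The blue circle, wild type replicate 1, is the rightmost mark for 29 of 40 genes.

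Summed over the 20 replication members, the libraries held 5399 and 4650 normalised reads in Elf4fl/fl-Villin-Cre colon and 6086 and 5246 in wild-type colon. The 20 mitosis members summed to 4156 and 3995 in Elf4fl/fl-Villin-Cre colon and 5705 and 4485 in wild-type colon. The groups overlapped in the replication sum and not in the mitosis sum, where wild type replicate 2 lay close to the Elf4fl/fl-Villin-Cre libraries. As a share of all reads, mitosis members took 0.0318% (95% Wilson interval 0.0310% to 0.0327%) and 0.0291% (0.0283% to 0.0299%) in Elf4fl/fl-Villin-Cre colon, and 0.0344% (0.0335% to 0.0353%) and 0.0268% (0.0260% to 0.0276%) in wild-type colon. These intervals cover counting error only, and the shares overlapped between the groups. The sum of mitosis over that of replication members was 0.770 and 0.859 in Elf4fl/fl-Villin-Cre colon and 0.937 and 0.855 in wild-type colon.

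The markers of epithelium moved much further than these genes. Their 11 genes summed to 81357 and 97472 normalised reads in Elf4fl/fl-Villin-Cre colon and 246566 and 305363 in wild-type colon. Per 1000 normalised reads of those markers, the replication members had 66.4 and 47.7 in Elf4fl/fl-Villin-Cre colon and 24.7 and 17.2 in wild-type colon, and the mitosis members 51.1 and 41.0 in Elf4fl/fl-Villin-Cre colon and 23.1 and 14.7 in wild-type colon. Both ratios were higher in each Elf4fl/fl-Villin-Cre library than in either wild-type library. They restate the lower marker sum, whose Elf4fl/fl-Villin-Cre mean was 0.324 of wild type, against 0.887 for replication and 0.800 for mitosis members. Reads of the members come from all cells of the tissue, so the ratios are not levels per epithelial cell. Markers of several other cell types were higher. Leukocyte markers, of which 3 of 6 rose and 0 fell, summed to 14227 and 9577 in Elf4fl/fl-Villin-Cre colon and 7542 and 5148 in wild-type colon. Fibroblast markers, of which 2 of 6 rose and 0 fell, summed to 72864 and 76882 in Elf4fl/fl-Villin-Cre colon and 44840 and 36260 in wild-type colon. Of germinal centre B cell markers, cells that divide fast, 1 of 7 rose and 0 fell, and the sums were 2799 and 1859 in Elf4fl/fl-Villin-Cre colon and 1753 and 1014 in wild-type colon. Of the remaining marker lists, 6 of 6 neutrophil, 5 of 6 monocyte and macrophage, 4 of 6 erythroid, 1 of 5 endothelium and 0 of 6 T cell markers rose, 1 of 5 smooth muscle markers fell, and no marker of these lists stood at 0 in any library. Smooth muscle markers summed to 51420 and 76822 normalised reads in Elf4fl/fl-Villin-Cre colon and 111985 and 83702 in wild-type colon, and T cell markers to 1055 and 849 in Elf4fl/fl-Villin-Cre colon and 1028 and 636 in wild-type colon. Neutrophil markers summed to 5768 and 6649 normalised reads in Elf4fl/fl-Villin-Cre colon and 1064 and 550 in wild-type colon. Which cells gave the proliferation RNA, and the part of cell makeup in its level, was not tested.

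**Figure D3:**
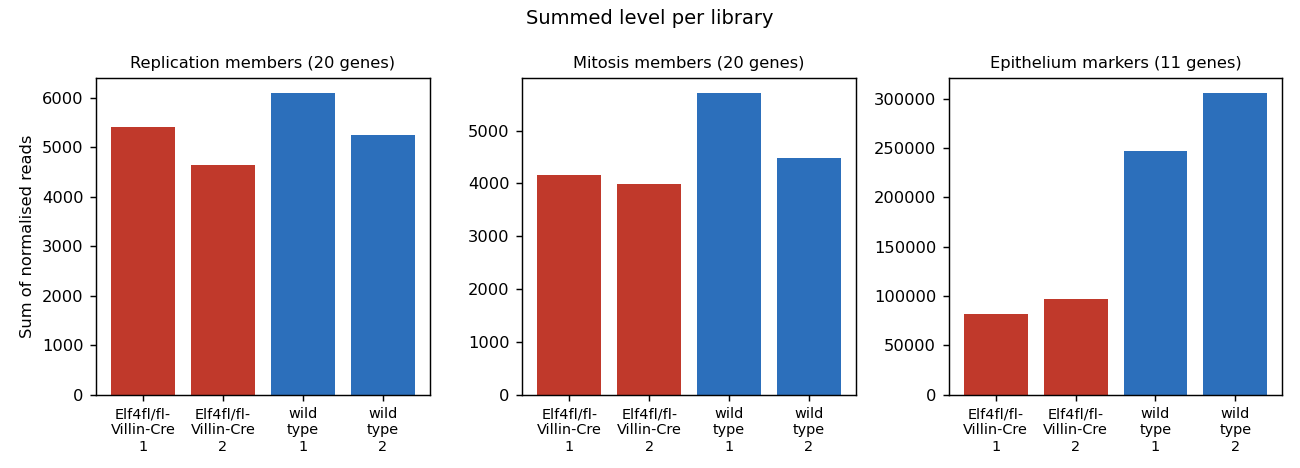
Sum of normalised reads per library (bars) for replication members, mitosis members and epithelium markers, with Elf4fl/fl-Villin-Cre in red and wild type in blue; each axis starts at 0 and has its own scale. The marker sums of 81357 and 97472 in Elf4fl/fl-Villin-Cre colon stand far below the 246566 and 305363 of wild-type colon, while the replication sums overlap between the groups.

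Among replication genes, 0 of the 6 subunit genes of the MCM helicase, the ring that opens the double helix, passed by limma or edgeR. Their log2 fold changes ran from -0.43 to -0.003, all below 0 in the deposited scaling, in which the median of all genes was 0.11. Mcm4 had 379 and 331 normalised reads in Elf4fl/fl-Villin-Cre colon and 375 and 336 in wild-type colon, with a log2 fold change of -0.003 (95% interval -0.38 to 0.38). Mcm7 had 394 and 382 in Elf4fl/fl-Villin-Cre colon and 563 and 480 in wild-type colon, and its groups did not overlap. Its log2 fold change was -0.42 ± 0.15 (SE; 95% interval -0.78 to -0.06; limma adjusted p = 0.111). Mcm5 stood at 288 and 232 in Elf4fl/fl-Villin-Cre colon and 425 and 289 in wild-type colon (limma adjusted p = 0.256), the Elf4fl/fl-Villin-Cre replicate 1 and wild type replicate 2 values lying side by side.

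Of the genes that license or fire origins, Cdc6 and Cdt1 load the helicase and Gins2 is part of the active helicase. Cdc6 had 83.1 and 39.3 normalised reads in Elf4fl/fl-Villin-Cre colon and 94.7 and 83.2 in wild-type colon. Its log2 fold change of -0.63 came with an SE of 0.39 (limma adjusted p = 0.318), and the low value was that of Elf4fl/fl-Villin-Cre replicate 2. Cdt1 and Gins2 differed by -0.02 and -0.16 on the log2 scale, and 67.3% of the exon bases of Gins2 are shared with an opposite-strand gene. The cyclin E genes Ccne1 and Ccne2, whose products drive entry into S phase with Cdk2, had log2 fold changes of 0.02 and 0.17, and their groups overlapped.

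At the replication fork, Pcna, the sliding clamp, had the highest level per exon length of all 40 members. It averaged 439 normalised reads per kilobase of annotated exon in Elf4fl/fl-Villin-Cre colon and 458 in wild-type colon. Its normalised reads were 1156 and 950 in Elf4fl/fl-Villin-Cre colon and 1153 and 1046 in wild-type colon, a log2 fold change of -0.07 (95% interval -0.44 to 0.30). Pola1, of the polymerase that primes synthesis, had the highest log2 fold change of the replication members, 0.18 ± 0.23 (SE; limma adjusted p = 0.626), with 162 and 122 normalised reads in Elf4fl/fl-Villin-Cre colon and 134 and 115 in wild-type colon. Prim1, the primase subunit, differed by -0.15. Fen1, the flap endonuclease that trims Okazaki fragments, had 18.7 and 15.9 normalised reads in Elf4fl/fl-Villin-Cre colon and 29.8 and 37.9 in wild-type colon. Its log2 fold change of -0.92 ± 0.36 (SE; limma adjusted p = 0.140) was the lowest of the 40 members, at 19 to 36 recovered reads a library. Of its annotated exon bases, 84.2% are shared with 2 other genes, so its count is uncertain. The gene that shares most is annotated on the opposite strand.

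Of the 5 nucleotide supply and chromatin genes, 0 passed by limma or edgeR. Rrm1 and Rrm2, the subunits of ribonucleotide reductase, differed by -0.15 and 0.01 on the log2 scale, and Tyms, thymidylate synthase, by -0.29. Uhrf1, which recruits DNA methylation to new DNA, had 210 and 184 normalised reads in Elf4fl/fl-Villin-Cre colon and 277 and 262 in wild-type colon. Its groups did not overlap, and its log2 fold change was -0.45 ± 0.17 (SE; limma adjusted p = 0.122). Chaf1a, a subunit of the histone chaperone that packs new DNA, differed by -0.43 ± 0.25 (SE; limma adjusted p = 0.292), with 52.5% of its exon bases shared with an opposite-strand gene.

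Among mitosis genes, 19 of 20 had a log2 fold change below 0 in the deposited scaling, against 43.8% of all genes tested, and 7 of 20 under library totals, against 27.6%. Without wild type replicate 1 it was 12 of 20 by limma, against 44.4%. Ccnb2 (ENSMUSG00000032218.7, chromosome 9, 70407692 to 70421547 in mm10) encodes cyclin B2, a partner of Cdk1. It had 108 and 115 normalised reads in Elf4fl/fl-Villin-Cre colon and 231 and 173 in wild-type colon. Every Elf4fl/fl-Villin-Cre value lay below both wild-type values. The means were 111 ± 4.41 in Elf4fl/fl-Villin-Cre colon and 202 ± 41.5 in wild-type colon (SD, n = 2 each), and the log2 fold change was -0.84 ± 0.22 (SE; limma adjusted p = 0.0504). edgeR called it with all libraries (adjusted p = 0.0356) but not with any 1 library left out (adjusted p = 0.0596 to 0.132), and in limma under library totals its log2 fold change was -0.52 (adjusted p = 0.126).

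The other cyclin genes and Cdk1 showed smaller differences. Ccna2, cyclin A2 of S phase and early mitosis, had 226 and 232 normalised reads in Elf4fl/fl-Villin-Cre colon and 352 and 295 in wild-type colon (log2 fold change -0.49 ± 0.17, SE; limma adjusted p = 0.101). Its groups did not overlap. Ccnb1, cyclin B1, had 167 and 125 in Elf4fl/fl-Villin-Cre colon and 206 and 116 in wild-type colon, so the wild-type libraries enclosed the Elf4fl/fl-Villin-Cre libraries. Cdk1, the kinase that drives mitosis, differed by -0.24 ± 0.22 (SE; limma adjusted p = 0.480).

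Of the mitotic kinases, Plk1, which acts from centrosome maturation to cytokinesis, had 337 and 522 normalised reads in Elf4fl/fl-Villin-Cre colon and 750 and 650 in wild-type colon. Its groups did not overlap, and its log2 fold change was -0.73 ± 0.23 (SE; limma adjusted p = 0.0836, edgeR adjusted p = 0.0564). DESeq2 called Plk1 (adjusted p = 0.0261) and Ccnb2, as it did 14.6% of its genes lower and 9.44% higher. With Elf4fl/fl-Villin-Cre replicate 2 left out, edgeR called Plk1 too (log2 fold change -1.09, adjusted p = 0.0068), and with any other library left out it did not. Per exon length Plk1 was the highest mitosis member, at 195 normalised reads per kilobase in Elf4fl/fl-Villin-Cre colon and 318 in wild-type colon. Aurka, the aurora kinase of spindle poles, had 73.3 and 87.0 in Elf4fl/fl-Villin-Cre colon and 123 and 120 in wild-type colon (log2 fold change -0.60 ± 0.22, SE; limma adjusted p = 0.116). Aurkb and Birc5, kinase and survivin of the chromosomal passenger complex, differed by -0.20 and -0.26, with groups that overlapped.

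Checkpoint and proteolysis genes control when sister chromatids part. Cdc20, which activates the anaphase-promoting complex, had 132 and 141 normalised reads in Elf4fl/fl-Villin-Cre colon and 242 and 181 in wild-type colon. Its groups did not overlap (log2 fold change -0.61 ± 0.21, SE; limma adjusted p = 0.103). Ube2c, the ubiquitin-conjugating enzyme of that complex, had 150 and 208 in Elf4fl/fl-Villin-Cre colon and 302 and 182 in wild-type colon, and its groups overlapped. The checkpoint kinase genes Bub1 and Bub1b differed by -0.16 and -0.15.

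Motor and kinetochore genes (median log2 fold change -0.13), spindle assembly genes (-0.02) and chromosome genes (-0.21) had the highest medians among the mitosis groups. Kif11 and Cenpe, kinesins of spindle poles and kinetochores, differed by -0.05 and -0.24 on the log2 scale, Cenpf of the kinetochore by -0.05 and Kif20a, a kinesin of cytokinesis, by -0.20. The spindle assembly factor gene Tpx2 differed by -0.36. Nusap1, which bundles spindle microtubules, had 161 and 120 normalised reads in Elf4fl/fl-Villin-Cre colon and 104 and 120 in wild-type colon, where the 2 replicate 2 values lay side by side. Its log2 fold change was 0.32 ± 0.23 (SE; limma adjusted p = 0.394). Mki67, the common histological marker of dividing cells, had 942 and 628 in Elf4fl/fl-Villin-Cre colon and 922 and 768 in wild-type colon. Its wild-type values lay between those of Elf4fl/fl-Villin-Cre colon, and its log2 fold change was -0.13 (95% interval -0.67 to 0.41). Top2a, the topoisomerase that untangles chromosomes, had 560 and 550 in Elf4fl/fl-Villin-Cre colon and 774 and 594 in wild-type colon (limma adjusted p = 0.291).

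**Figure D4:**
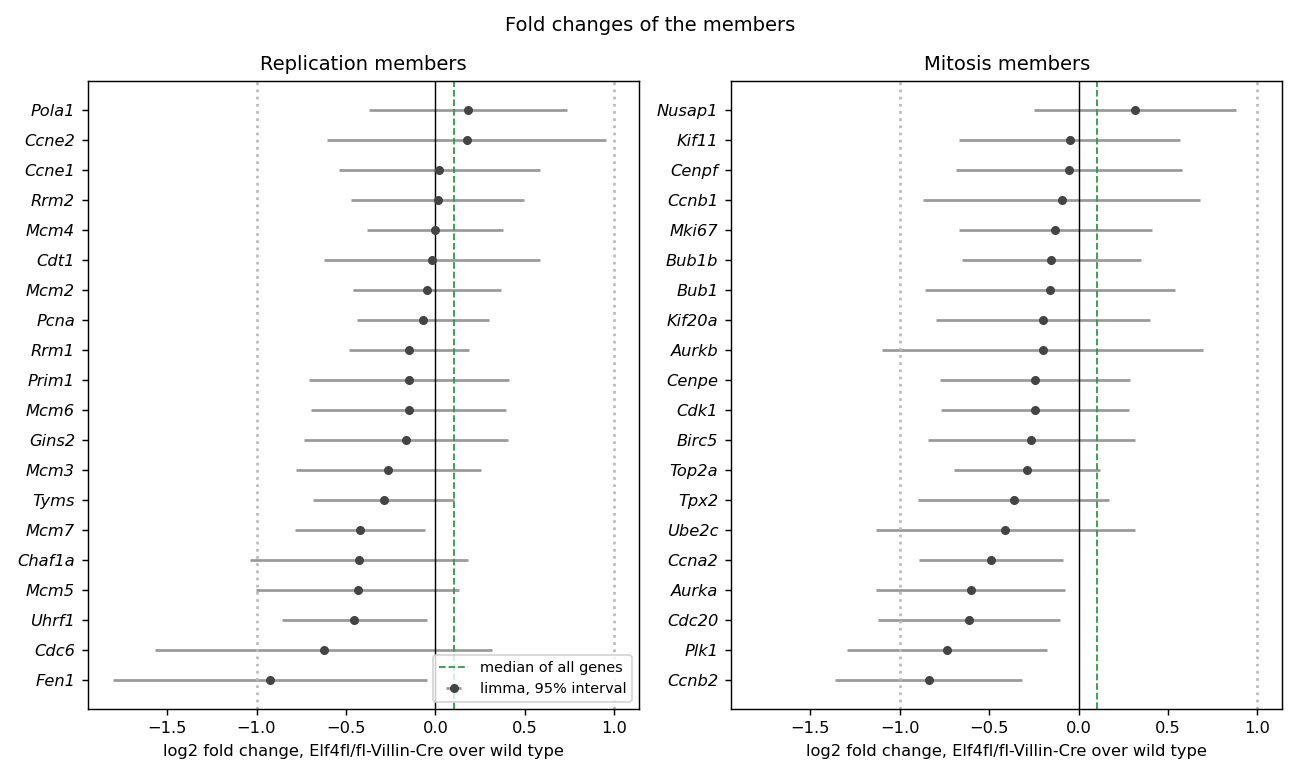
Log2 fold change (Elf4fl/fl-Villin-Cre over wild type, limma) of each replication member (left) and mitosis member (right), with its 95% interval. The green dashed line marks the median of all genes tested, 0.11, and dotted lines a fold of 2. Intervals of 30 of 40 members lie within the dotted lines, and Ccnb2 is the lowest mitosis member at -0.84.

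Other genes of the cycle, from lists chosen with earlier results of these data known, held 7 of 114 that fell by limma and 0 that rose, against 8.6% and 6.86% of all genes tested, so the share that fell was no higher than among all genes. edgeR called 8 lower and 1 higher (13.5% and 9.88% of all genes). Under library totals limma called 4 lower and 13 higher (5.42% and 18.7% of all genes). Of 7 G1 cyclins and kinases, 3 fell and 0 rose. Under library totals limma called Cdk4 (log2 fold change 0.72, adjusted p = 0.0183) and Cdk2 (0.65, adjusted p = 0.0481) higher. Ccnd1 (-1.22, adjusted p = 0.0161) and Ccnd2 (-0.88, adjusted p = 0.0245) were still lower there. Ccnd1 (ENSMUSG00000070348.5, chromosome 7, 144929931 to 144939925 in mm10), cyclin D1 of the G1 kinases, had 252 and 203 normalised reads in Elf4fl/fl-Villin-Cre colon and 764 and 562 in wild-type colon. It fell by 1.53 ± 0.21 on the log2 scale (SE; limma adjusted p = 0.0118), and edgeR also called it in the fits that left out 1 library (highest adjusted p = 0.0310). In each such fit 1 group has a single library, which is assumed to vary like the pair of the other group, so a call there is weak support. limma called 0 genes of the whole table with a library left out. Ccnd2, cyclin D2, had 1253 and 1871 in Elf4fl/fl-Villin-Cre colon and 3583 and 3421 in wild-type colon. It fell by 1.19 ± 0.21 (SE; limma adjusted p = 0.0186), but was past the threshold neither in edgeR when wild type replicate 2 was left out (adjusted p = 0.0528) nor in limma with quantile scaling (adjusted p = 0.0566). Ccnd3, cyclin D3, had 1263 and 1208 in Elf4fl/fl-Villin-Cre colon and 1451 and 1086 in wild-type colon, and its groups overlapped. The exons of Ccnd1 share 23.4% of their bases with an opposite-strand gene.

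Cdc25a, the phosphatase that activates Cdk2, had 292 and 454 normalised reads in Elf4fl/fl-Villin-Cre colon and 670 and 672 in wild-type colon. It fell by 0.88 ± 0.22 (SE; limma adjusted p = 0.0496). Its limma log2 fold change was -0.56 when Elf4fl/fl-Villin-Cre replicate 1 was left out, and edgeR did not call it when that library or either wild-type library was dropped (highest adjusted p = 0.114). Under library totals it was -0.57 (limma adjusted p = 0.0949), and with quantile scaling limma did not call it (adjusted p = 0.0700).

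An inhibitor and a pocket protein of the same step were also lower. Of 7 CDK inhibitors, 1 fell and 0 rose. Cdkn2b (chromosome 4, 89306299 to 89311039), the p15 inhibitor of the cyclin D kinases, had 141 and 244 normalised reads in Elf4fl/fl-Villin-Cre colon and 556 and 547 in wild-type colon. It fell by 1.57 ± 0.27 (SE; limma adjusted p = 0.0181), and edgeR missed it when wild type replicate 2 was left out (adjusted p = 0.0539). Of 18 transcriptional regulators of the cycle, 1 fell and 0 rose. Rbl1, the retinoblastoma family protein p107, had 259 and 211 in Elf4fl/fl-Villin-Cre colon and 409 and 419 in wild-type colon. It fell by 0.82 ± 0.17 (SE; limma adjusted p = 0.0267), which edgeR missed when either wild-type library was left out (highest adjusted p = 0.0794), as did limma under library totals (log2 fold change -0.51, adjusted p = 0.0864).

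**Figure D5:**
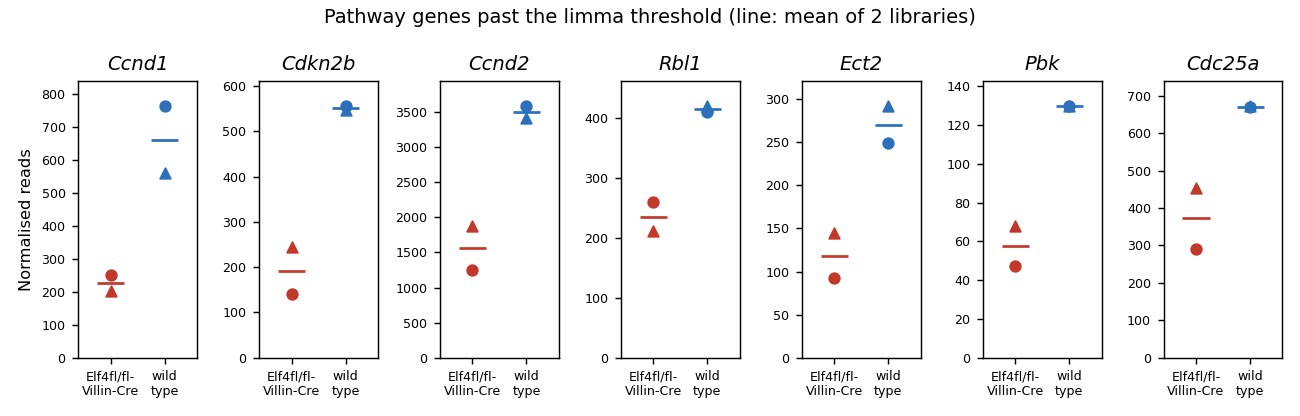
Normalised reads of the 7 pathway genes past the limma threshold, per library (circle replicate 1, triangle replicate 2) with the group mean as a line; red is Elf4fl/fl-Villin-Cre and blue wild type. In each of the 7 genes both Elf4fl/fl-Villin-Cre values lie below both wild-type values, as for Ccnd1 at 252 and 203 in Elf4fl/fl-Villin-Cre colon and 764 and 562 in wild-type colon. The genes were drawn because they passed the test, which favours groups that do not overlap. Of all genes tested, 27.2% had both Elf4fl/fl-Villin-Cre values lower.

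The further replication genes outside the 40 ran from -0.95 to 0.85 in log2 fold change, and the further mitosis genes from -1.22 to 0.60. Of 30 other replication genes, 0 rose and 0 fell by limma (unadjusted p under 0.05 in 2 of each direction), and edgeR called 1 in each direction. These were Tipin, a fork protection protein, at 255 and 221 normalised reads in Elf4fl/fl-Villin-Cre colon and 154 and 112 in wild-type colon, and Asf1b, a histone chaperone, at 60.3 and 47.7 in Elf4fl/fl-Villin-Cre colon and 118 and 92.7 in wild-type colon. edgeR called neither with any 1 library left out (highest adjusted p = 0.177 for Tipin and 0.167 for Asf1b). Tipin was called higher in 6 of 21 settings and Asf1b lower in 6 of 21. In limma under library totals Tipin had a log2 fold change of 1.16 (adjusted p = 0.0204) and Asf1b -0.64 (adjusted p = 0.136). Of 44 other mitosis genes, 2 fell and 0 rose by limma (unadjusted p under 0.05 in 7 lower and 2 higher). Smc4 was higher but uncalled, with 917 and 833 normalised reads in Elf4fl/fl-Villin-Cre colon and 516 and 641 in wild-type colon (limma adjusted p = 0.0534). Among other settings, limma called Smc4 higher with a pseudocount of 10 (adjusted p = 0.0476) and under library totals (adjusted p = 0.0157). Ect2, which activates the contractile ring in cytokinesis, had 92.0 and 145 in Elf4fl/fl-Villin-Cre colon and 249 and 292 in wild-type colon (log2 fold change -1.22 ± 0.26, SE; limma adjusted p = 0.0301). Pbk, a mitotic kinase, had 47.2 and 67.7 in Elf4fl/fl-Villin-Cre colon and 130 and 130 in wild-type colon (log2 fold change -1.18 ± 0.26, SE; limma adjusted p = 0.0330). edgeR missed Ect2 when wild type replicate 2 (adjusted p = 0.10) or Elf4fl/fl-Villin-Cre replicate 1 (adjusted p = 0.0508) was left out. It missed Pbk when either of these or wild type replicate 1 was left out (highest adjusted p = 0.0961), and limma missed Pbk under library totals (adjusted p = 0.0519).

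Arrest genes and markers of the crypt base were listed as well. Of 8 quiescence and arrest genes, 0 passed limma (unadjusted p under 0.05 in 2 of each direction) and 0 passed edgeR. Their smallest p belonged to Btg2, an antiproliferative gene, with 3215 and 3303 normalised reads in Elf4fl/fl-Villin-Cre colon and 2478 and 2043 in wild-type colon (limma adjusted p = 0.0601), and to Sesn1, a p53 target, with 517 and 508 in Elf4fl/fl-Villin-Cre colon and 345 and 390 in wild-type colon (limma adjusted p = 0.0732). Btg2 was called higher in 6 of 21 settings, among them DESeq2 (adjusted p = 0.0403) and limma under library totals (adjusted p = 0.0146). Sesn1 was called higher only in limma under library totals (adjusted p = 0.0168), where 18.7% of all genes were. Tob1 of the same list was called lower by DESeq2 (adjusted p = 0.0298), and with the replicate block by limma (adjusted p = 0.0306) and edgeR (adjusted p = 0.0115). In edgeR without wild type replicate 1 the log2 fold change of Tob1 was -0.82. Of 7 crypt stem and progenitor markers, 1 rose and 2 fell. Myb, a progenitor transcription factor, had 48.1 and 46.0 in Elf4fl/fl-Villin-Cre colon and 183 and 295 in wild-type colon (limma adjusted p = 0.0102). Sox9, a crypt factor, had 88.0 and 207 in Elf4fl/fl-Villin-Cre colon and 462 and 356 in wild-type colon (limma adjusted p = 0.0480), and it was called in 10 of 21 settings. edgeR missed it when either wild-type library was left out (highest adjusted p = 0.122), and limma under library totals (adjusted p = 0.0559) and quantile scaling (adjusted p = 0.0630). Its limma log2 fold change was -0.97 when Elf4fl/fl-Villin-Cre replicate 1 was left out and -2.19 when Elf4fl/fl-Villin-Cre replicate 2 was. Smoc2, which is also made by fibroblasts, rose to 954 and 1291 in Elf4fl/fl-Villin-Cre colon, against 428 and 321 in wild-type colon (limma adjusted p = 0.0118). Lgr5, the stem cell receptor, was nearly undetected, with 6.52 and 4.18 in Elf4fl/fl-Villin-Cre colon and 1.03 and 4.21 in wild-type colon.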

How the data were processed

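Distal colon RNA was measured in 4 libraries, grouped and numbered by title. The authors deposited 1 normalised signal per gene and library, on genome build mm10 per the submitters' processing notes. Aligner, counter, annotation, strandedness and scaling tool: not given in the sources used here. Every value was a whole multiple of its library's smallest value (100% within 0.01), so whole reads were recovered. Symbols, positions and exon lengths came from GENCODE M21. The test was limma 3.58.1 (R 4.3.3) on log2(value + 1), variance trend, genotype only, mean value at least 1, adjusted over 22050 genes; intervals are limma's. edgeR 4.0.16 (quasi-likelihood, TMM, filterByExpr) and DESeq2 1.42.0 on recovered reads, other scalings, pseudocounts and filters, a replicate block and leaving out libraries were alternatives. Scripts were tested on simulated data. With 2 libraries against 2 an exact permutation test cannot go below p = 0.333. Members and lists were chosen with earlier results of these data known. Values in every library are given for Elf4 and for members with an unadjusted p under 0.05 by limma or edgeR. They are also given for the extremes of fold change and level per kilobase, and for up to 4 called genes per list. Other members with such values, and Smc4, were picked after these were seen. For marker lists beyond epithelium and crypt, counts and sums are given.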

Additional observations from a re-analysis of the deposited data

How the results depend on the processing

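With all libraries limma called 0 members lower. The count was 1 with edgeR, with edgeR without a filter, with a mean value of at least 10, with TMM scaling, with quantile scaling and with the limma replicate block, 2 with DESeq2, and 0 to 1 without 1 library; 0 members were called higher in any of the 20 other settings. Pathway genes called higher were 0 in the limma fit, 1 with edgeR, with a pseudocount of 10 and with quantile scaling, 3 with a mean value of at least 10, 2 with DESeq2 and 13 under library totals. Pathway genes called lower were 7, and 12 with DESeq2, 4 under library totals and 0 to 8 without 1 library. Under library totals 4114 genes were higher (18.7% of all genes) and 1194 lower (5.42%), against 1512 and 1897 in the limma fit. DESeq2 called 9.44% of its genes higher and 14.6% lower. The medians under library totals were 0.17 for replication and 0.071 for mitosis members. Without 1 library the medians ran from -0.31 to -0.09 for replication and from -0.50 to -0.07 for mitosis members, and all genes called from 0 to 1563 higher and 0 to 2191 lower. Without wild type replicate 2 the limma medians were -0.29 for replication and -0.47 for mitosis members, and edgeR called 476 genes higher and 809 lower; without Elf4fl/fl-Villin-Cre replicate 1 it called 844 higher. The 0 came from limma, which had 1 residual degree of freedom and called 0 of 22050 genes in each such fit (1673 to 3386 higher and 2056 to 2803 lower at an unadjusted p under 0.05), so these fits say nothing about single genes. Of 1120 values of 56 named genes in other settings, 0 called values turned sign, 74 lost a call and 31 gained one. Another 36 uncalled values changed sign and moved by at least the SE of that gene's main limma log2 fold change. The cause of these changes was not tested, beyond the fewer libraries.

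The replicate numbers are only shared numbers. Same-numbered libraries deviated together weakly (r = 0.10 across 22050 genes), and no label says what a number marks. With the replicate block edgeR called 3 members lower (Ccnb2, Plk1 and Cdc20), 14 pathway genes lower and 4 higher, and 2456 genes higher and 2977 lower; limma with the block called 4 pathway genes higher.

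Limits: 2 libraries a group give wide intervals, and members such as Fen1, at 19 to 36 reads, cannot show small differences at this depth. Exons of 12 members share bases with other genes, over 20% in 5, and without a stated strand these reads cannot be told apart. Reads of whole colon do not tell which cells were dividing.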
